A study of Saccharomyces cerevisiae with 4 samples.

Results

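The small subunit of the cytosolic ribosome of budding yeast is built from one rRNA and a set of proteins whose genes carry the symbol RPS and a number. All array genes with that symbol, with or without the letter A or B, were taken, which gave 56 of the 6218 open reading frames (ORFs) on the array. Of these, 8 are single-copy genes (RPS3, RPS15 and RPS31 among them), and the other 48 form 24 pairs of A and B paralogs that encode nearly the same protein. For 55 members the systematic ORF name in the files matched the annotation. The remaining one, RPS14A, is spelt YCR031 there, without a strand letter, and was recognised by the gene name beside it.

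The sample cells were SK1 diploids of strain GF18, in which NDT80 was placed behind the SPS4 promoter (pSPS4-3HA-NDT80 in the study's methods). Ndt80 turns on the mid-sporulation genes, and SPS4 is one of them, so all 4 samples share this rewired regulator. The culture had spent 5.5 h in sporulation medium (SPM, 0.3% potassium acetate and 0.02% raffinose). Part of it was then centrifuged, resuspended in rich medium with 4% glucose (YPD) and harvested immediately (0 min) or after 20 or 40 min. How long this handling took is not given, so 0 min includes an exposure to YPD of unknown length. This handling separates every YPD sample from the 5.5 h sample, and its part in the changes was not tested. The reference on every array was the same RNA of wild-type SK1 diploids (NKY1551), which grew at 30°C in YPA, an acetate-based medium (1% potassium acetate). Each array set the sample, in Cy5, against that reference, in Cy3, and each ORF was printed as 2 adjacent spots of a PCR product. Log2 ratios are sample over reference, normalized so that the median ORF of an array lies at 0. There was 1 array per group, so no p-value is given, and each error is the SD of the 2 spots, which leaves out the variation between cultures.

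Ribosomal proteins are among the most heavily transcribed genes of growing yeast, and their mRNAs are known to decline when nutrients run out and to return when glucose is supplied. The factors Rap1, Fhl1 and Ifh1 act at their promoters, and Sfp1 links them to nutrient signals. Large and small subunit proteins are needed in equal numbers, and most of their genes were retained in duplicate after the ancient duplication of the yeast genome.

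The arrays were of similar quality. The median background-subtracted signal of the ORF spots was between 922 and 2039 in Cy5 and between 1137 and 1782 in Cy3. Duplicate spots correlated at r = 0.975 to 0.982 across ORFs. No RPS spot was among the 17 spots with an ignore flag, all of which lay on the 0 min array. Along the 4 samples, in the order SPM, 0, 20 and 40 min, the log2 ratio of NDT80 was 6.79, 7.39, 6.88 and 5.62, and its reference signal was above background on none of the 4 arrays, so these ratios stand for bounds, between at least 27.1-fold (40 min) and at least 68.0-fold (0 min). All 10 listed mid-sporulation markers were over 2-fold above the reference on each of the 4 arrays (19.7% to 22.3% of all ORFs). Of 7 haploid-specific markers, 2 were above background in the sample at 5.5 h, where 54.4% of all ORFs were. Both were higher than the reference there, MF(ALPHA)1 by a measured 2.36-fold and STE3 by at least 3.51-fold. With MFA1, above background in neither channel, 3 of the 7 were over 2-fold higher in the mean and both spots (21.7% of all ORFs).

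Only part of the RPS signal could be measured in sporulating cells. The limit for a signal above background was the 95th percentile of 236 buffer spots, to be passed by either spot. In Cy5, 28, 54, 53 and 53 of the 56 members passed at 5.5 h, 0, 20 and 40 min, and in the reference channel 54 passed on every array. For 27 members both channels passed on all 4 arrays. Where one side was not above background, a fold is given as a lower bound ("at least"), computed per channel from the brighter side.

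**Figure D1:**
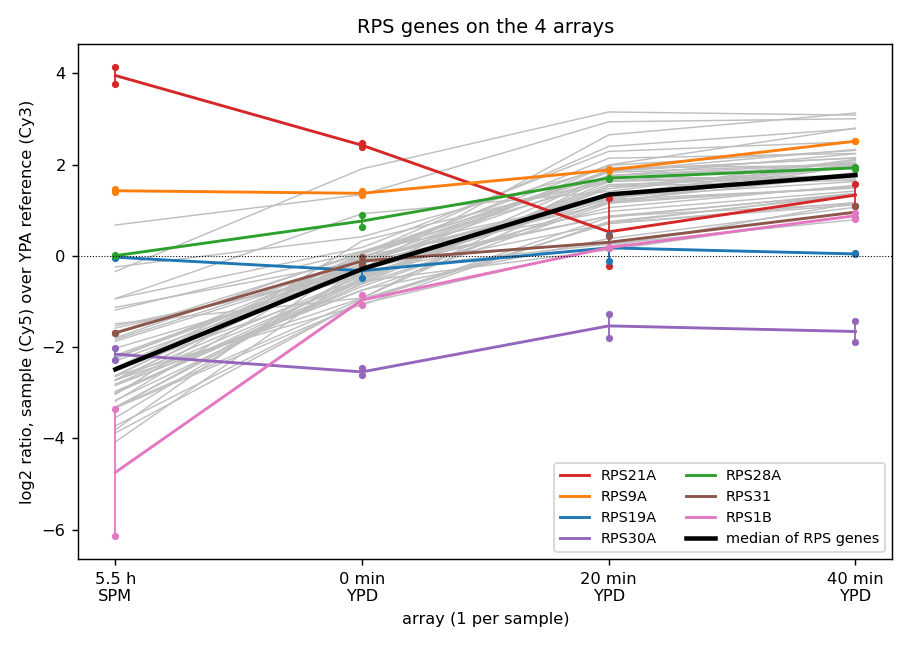
Log2 ratio of sample over YPA reference (y axis) for the 56 RPS genes on the 4 arrays (x axis). Grey lines are single members, the black line is their median, and 7 genes named in the text are coloured, with points for their 2 spots. The median climbs through −2.49, −0.29, 1.35 and 1.77, while RPS21A runs the other way and RPS9A, RPS19A and RPS30A stay within a narrow band.

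At 5.5 h in SPM, the RPS genes were far below their level in acetate-grown cells. The median log2 ratio was −2.49, and 47 of 56 members were lower by at least 2-fold in the mean and in both spots, the rule used for every count here. Across all ORFs 18.1% were lower and 21.7% higher by the same rule. For 22 of the 47 both channels were above background. Their folds ran between 2.19 (RPS26B) and 26.8 (RPS1B, from spots that disagree) with a median of 6.38. The other 25 had only bounds, between at least 1.47-fold (RPS30A) and at least 13.1-fold (RPS3, the protein at the mRNA entry site). RPS9A and RPS21A were higher than the reference. The 7 members that passed in neither direction were RPS7B, RPS13, RPS19A, RPS27A, RPS27B, RPS28A and RPS28B, so both copies of RPS27 and of RPS28 were among them. Both copies of RPS28 were above background in both channels. RPS19A, RPS27A and RPS27B were not above background in the sample there, so their ratios do not resolve a 2-fold decrease.

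The change was already large in the cells harvested immediately after centrifugation and resuspension in YPD. At 0 min the median log2 ratio was −0.29, with 4 members higher than the reference and 2 lower (21.5% and 19% of all ORFs), and relative to 5.5 h the median log2 change was 2.08. In this comparison 47 members were higher and 1, RPS21A, was lower, where 7.57% of all ORFs were higher and 4.12% lower. The 8 members that passed in neither direction were RPS7B, RPS9A, RPS19A, RPS26B, RPS28A, RPS28B, RPS29B and RPS30A. At 20 min the median ratio was 1.35, with 39 members higher than the reference and 1 lower (22.3% and 20.2% of all ORFs). The median change relative to 5.5 h was 3.98, with 52 members higher and RPS21A lower (11.5% and 15.8% of all ORFs). At 40 min the median ratio was 1.77 and the median change 4.32, with 53 members higher and RPS21A lower (13.9% and 19.8% of all ORFs). Only RPS19A and RPS30A passed in neither direction at 40 min. The 3 comparisons share the 5.5 h array, so any error on that array enters all of them. In RNA of a whole culture, more mRNA per cell and more cells with the mRNA cannot be told apart. Over all ORFs the median change was −0.16, −0.26 and −0.22 at 0, 20 and 40 min.

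Because so many members were dim at 5.5 h, the median change was also taken with bounds in place of measured values. It was then 1.98, 3.66 and 3.88 at 0, 20 and 40 min, over the 54 members with at least 1 side above background. Of the 53 members called higher at 40 min, 27 were above background on both sides. Their folds ran between 2.12 (RPS9A) and 49.3 (RPS1B, from spots that disagree) with a median of 14.9. The other 26 had bounds between at least 5.02-fold (RPS27A) and at least 23.5-fold (RPS9B). By 40 min the members also exceeded acetate-grown cells. Against the YPA reference 49 members were higher at 40 min and 1, RPS30A, was lower (19.7% and 17.7% of all ORFs). The measured folds of 48 of these ran between 2.17 (RPS4B) and 8.75 (RPS22A). The other, RPS21A, was above background in neither channel at 40 min. The 6 members that passed in neither direction were RPS1B, RPS3, RPS6B, RPS8A, RPS19A and RPS31.

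**Figure D2:**
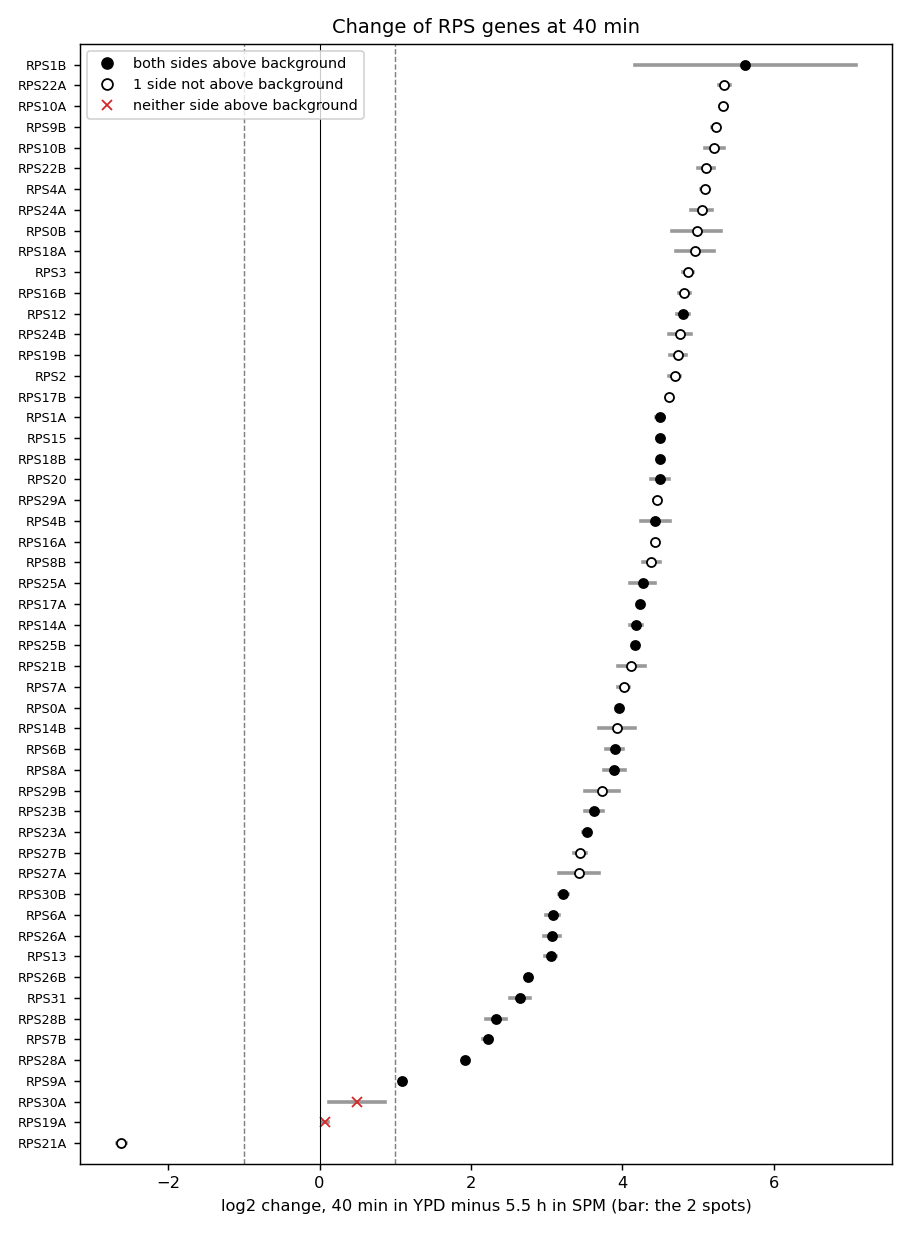
Log2 change at 40 min in YPD relative to 5.5 h in SPM (x axis) for the RPS genes (y axis, ordered by change, some members not drawn). Grey bars join the changes of the 2 spots, filled circles have both sides above background, open circles have 1 side, crosses have neither, and dashed lines mark 2-fold. Nearly all genes lie right of the upper line, RPS21A lies left of the lower one, and the bar of RPS1B is by far the widest.

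RPS1B, RPS22A, RPS10A and RPS9B were among the members with the largest log2 changes at 40 min. RPS1B (YML063W), a protein of the platform, had log2 ratios of −4.74 ± 1.97, −0.97 ± 0.17, 0.18 ± 0.02 and 0.88 ± 0.09 at 5.5 h, 0, 20 and 40 min. Its 2 spots at 5.5 h were −6.14 and −3.35, and only 1 of them was above background, so its change of 5.62 ± 2.05 rests on spots that disagree. In the authors' value table the same change was 4.27. RPS22A (YJL190C) had −2.22 ± 0.02, −0.29 ± 0.07, 2.65 ± 0.24 and 3.13 ± 0.08, a change of 5.34 ± 0.10 at 40 min. Its 5.5 h signal was not above background, and the bound was at least 12.2-fold. RPS10A (YOR293W), which lies in the head near the mRNA entry, had −3.18 ± 0.20, 0.04 ± 0.16, 1.86 ± 0.03 and 2.15 ± 0.14, and was at least 16.6-fold higher at 40 min. All of these but RPS1B have only bounds, so their order among the bounded members is not resolved.

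RPS21A was the only member that was lower in YPD than in SPM. Rps21 is a small protein of the subunit body with no bacterial counterpart. RPS21A (YKR057W) had log2 ratios of 3.95 ± 0.25, 2.42 ± 0.07, 0.53 ± 1.05 and 1.33 ± 0.34 at 5.5 h, 0, 20 and 40 min. It was the highest of all members at 5.5 h and at 0 min. Its background-subtracted Cy5 signal was 3999, 1103, 488 and 840 on these arrays, above background at 5.5 h and 0 min only, while the reference, at 182 to 402, was above background on none. The change at 0 min was −1.53 ± 0.18 in the log2 ratio and −1.19 in the Cy5 channel alone, where it was not called. At 40 min the change was −2.62 ± 0.08, and RPS21A was at least 2.81-fold lower than at 5.5 h. The 2 spots at 20 min were −0.22 and 1.27, so the order of 20 and 40 min was not resolved by the spots.

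Its paralog went the way of the family. RPS21B (YJL136C) had log2 ratios of −2.02 ± 0.14, −0.42 ± 0.12, 1.31 ± 0.08 and 2.09 ± 0.11, a change of 4.12 ± 0.25 at 40 min and at least 14.5-fold. The neighbouring gene of RPS21A, TRM2 (a tRNA methyltransferase), was looked up after the values of RPS21A were seen. TRM2 had log2 ratios of 4.75, 3.63, 1.55 and 0.94, and was at least 5.64-fold lower at 40 min than at 5.5 h. Both had their highest ratio at 5.5 h. The neighbour on the other side, GLG1, had 0.44 at 5.5 h and was not above background there. Whether signal of a neighbouring transcript enters the RPS21A spots was not tested.

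RPS9A differed in another way, with high signal on every array. Rps9 is a universally conserved protein that binds rRNA early in assembly of the subunit. RPS9A (YPL081W) had log2 ratios of 1.43 ± 0.05, 1.37 ± 0.06, 1.88 ± 0.04 and 2.51 ± 0.01 at 5.5 h, 0, 20 and 40 min. Both channels were above background in both spots on all 4 arrays, with Cy5 signals between 7318 and 25117. Relative to 5.5 h, the log2 change was −0.06 ± 0.01, 0.45 ± 0.01 and 1.09 ± 0.04 on the YPD arrays in order of time. RPS9A was thus the last of the called members to move, with −5.14% of its 40 min change at 0 min and 41.8% at 20 min. With print-tip loess the 40 min change of RPS9A was −0.33, and with the Cy5 channel alone it was 0.86, so its call did not hold in either setting and its direction not in the first. RPS9B (YBR189W) had −3.81 ± 0.03, −0.00 ± 0.17, 0.97 ± 0.03 and 1.42 ± 0.03, and was at least 23.5-fold higher at 40 min. The copies were 1.09 apart on the log2 scale at 40 min. At 5.5 h they lay on opposite sides of the reference, with RPS9A 2.69-fold above it and RPS9B, not above background in the sample, at least 8.59-fold below.

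The 2 members that did not pass at 40 min were not above background in any sample. RPS19A (YOL121C) had log2 ratios of −0.03 ± 0.04, −0.33 ± 0.24, 0.18 ± 0.40 and 0.04 ± 0.01, and its signal was between 154 and 302 in both channels of the 4 arrays, not above background on any. Its ratios near 0 thus give no level. RPS19B (YNL302C) had −2.49 ± 0.21, −0.05 ± 0.22, 2.14 ± 0.11 and 2.24 ± 0.06, and was at least 10.2-fold higher at 40 min. Rps19 is a head protein needed for maturation of the subunit's rRNA. RPS30A (YLR287C-A) had −2.15 ± 0.18, −2.54 ± 0.11, −1.53 ± 0.38 and −1.66 ± 0.33, with Cy5 not above background on any array and the reference above it on all 4. It was the only member below the reference at 40 min, by at least 1.47-fold. RPS30B (YOR182C) had −1.19, 0.10, 1.76 and 2.03, with both channels above background, and rose 9.31-fold by 40 min.

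RPS28A, RPS28B and RPS7B had the smallest changes among the remaining members. RPS28A (YOR167C) had log2 ratios of 0.00 ± 0.02, 0.76 ± 0.18, 1.70 ± 0.02 and 1.93 ± 0.02, a measured 3.79-fold increase at 40 min relative to 5.5 h. RPS28B (YLR264W), whose mRNA is known to be destabilised by its own protein, had 0.68 ± 0.10, 1.34 ± 0.12, 2.94 ± 0.06 and 3.0 ± 0.27, a 5.02-fold increase. Neither copy of RPS28 was below the reference by 2-fold at 5.5 h. RPS7B (YNL096C) had −0.24 ± 0.02, 0.42 ± 0.12, 1.94 ± 0.04 and 1.97 ± 0.10, a 4.65-fold increase. RPS31 (YLR167W), which is made as a fusion to ubiquitin, had −1.69 ± 0.01, −0.11 ± 0.12, 0.30 ± 0.19 and 0.96 ± 0.20. It was 6.26-fold higher at 40 min than at 5.5 h, the smallest change of the 8 single-copy genes, and did not pass 2-fold over the reference at 40 min.

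On the median, paralogs had closer changes at 40 min than members of different pairs. The median absolute difference between A and B in the 40 min change was 0.43, against 1.01 over the 1104 combinations of duplicated genes from different pairs. In the log2 ratio at 5.5 h alone the corresponding medians were 0.42 and 1.06. Only 28 of the 56 members were above background in the sample there. At 0 min they were 0.29 and 0.54, and at 40 min 0.48 and 0.59. At 20 min the medians were 0.62 and 0.68, and thus hardly different. In the 40 min change, 14 of 24 pairs lay within 0.5 and 17 within 1. RPS23, at the decoding centre, was among the closest: RPS23A (YGR118W) had −2.18, −0.22, 0.87 and 1.35, and RPS23B (YPR132W) had −1.80, 0.09, 1.26 and 1.82. The 40 min change was 3.53 ± 0.07 for RPS23A and 3.62 ± 0.17 for RPS23B.

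The RPS27 copies differed at 0 min. RPS27A (YKL156W) had log2 ratios of −0.34 ± 0.27, 1.91 ± 0.16, 3.15 ± 0.15 and 3.08 ± 0.11, and RPS27B (YHR021C) had −0.94 ± 0.04, 0.18 ± 0.00, 2.29 ± 0.01 and 2.50 ± 0.07. At 0 min the copies were 1.72 apart, more than 2-fold in both spots. Neither was above background in the sample at 5.5 h, so the 40 min changes were at least 5.02-fold for RPS27A and at least 7.51-fold for RPS27B.

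Of the 24 pairs, 5 differed by over 2-fold in the mean and in both spots in their 40 min change. In each of them at least 1 copy was not above background in the sample at 5.5 h (RPS7A, RPS9B, RPS21B, RPS30A and both copies of RPS19), so the sizes of the differences are set against a dim signal. In RPS7 the A copy changed more, by at least 13.5-fold against a measured 4.65-fold for RPS7B. RPS7A had log2 ratios of −1.87, −0.19, 1.88 and 2.14, so the copies were apart at 5.5 h and close from 20 min on. In RPS30, RPS9, RPS19 and RPS21 the B copy had the larger log2 change. The A copies of RPS19 and RPS30 were not above background in any sample, and that of RPS21 not at 20 and 40 min, so among these 4 pairs only RPS9 had both copies above background at 40 min. 4 pairs differed in this way at 0 min and 6 at 20 min, and none did in the step between 20 and 40 min. In their 40 min change the RPS1 copies were 1.13 apart with an SD of 1.98, and did not pass. Their log2 ratios on the 40 min array were only 0.28 apart. In 11 pairs the same copy was the higher one on all 4 arrays. Sequence identity between copies was not used here. Each spot carries a PCR product of an ORF, paralogous transcripts can hybridise to the same spot, and the part this plays in the closeness of the copies was not tested.

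**Figure D3:**
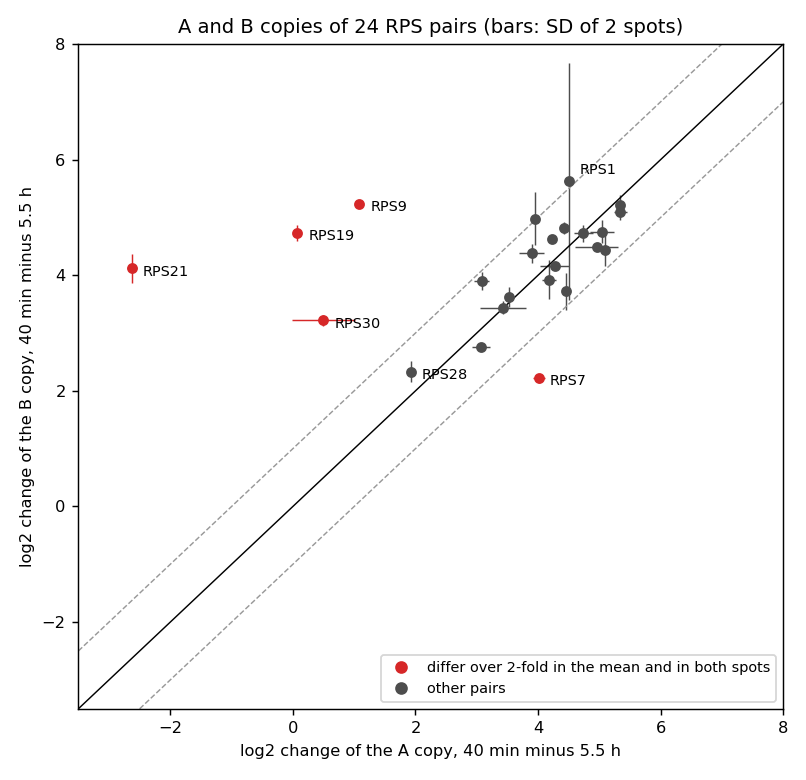
Log2 change at 40 min in YPD relative to 5.5 h in SPM for the A copy (x axis) and the B copy (y axis) of 24 RPS pairs. Bars are the SD of the 2 spots, the solid line marks equal change, and dashed lines mark a 2-fold difference. 5 pairs in red differ in the mean and in both spots, and RPS21 lies farthest from the line, with −2.62 for RPS21A and 4.12 for RPS21B.

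Most of the change came before 20 min. Between 0 and 20 min the median step was 1.62, with 45 members higher and RPS21A, with a bound of at least 1.44-fold, lower (6.19% and 7.49% of all ORFs). Of the 10 members that did not pass in this step, 4 were single-copy genes (RPS3, RPS13, RPS20 and RPS31). Among the 53 members called higher at 40 min, the median share of the 40 min log2 change was 51.5% at 0 min and 90.5% at 20 min. With global loess, the step into 0 min was the largest in 34 of them, the step between 0 and 20 min in 18, and the last step in 1. The order of the first 2 steps depended on the scaling. Their medians over all members were 1.985 and 2.225 in the authors' value table, and 2.046 and 2.265 with the study's own processing steps. In the other settings run the median step into 0 min was the larger, narrowly so with plain median scaling (2.295 and 2.244). For 26 of the 53 the 5.5 h signal was not above background, and with bounds in place the median shares were 52.1% and 94.9%. Among the 27 with both sides above background, RPS12 (70.1%) and RPS1B (67.2%, from spots that disagree) had the highest shares at 0 min, and RPS9A (−5.14%), RPS28B (28.7%) and RPS7B (29.8%) the lowest.

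The last interval added little. Between 20 and 40 min the median step was 0.43, and 0 of 56 members passed 2-fold in either direction (4.05% of all ORFs were higher and 1.58% lower). 52 members had a positive step with global loess. The sign of this step depended on the scaling, since the median was −0.14 with plain median scaling of each array, −0.11 with the study's steps, −0.07 in the authors' value table and −0.08 in the Cy5 channel alone. With median scaling 17 members were positive and 39 negative. In these 4 settings the change at 20 min was as large as that at 40 min, with a median share of 102% to 103%, whereas the share at 0 min was 47.0% to 58.3% in all settings run.

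**Figure D4:**
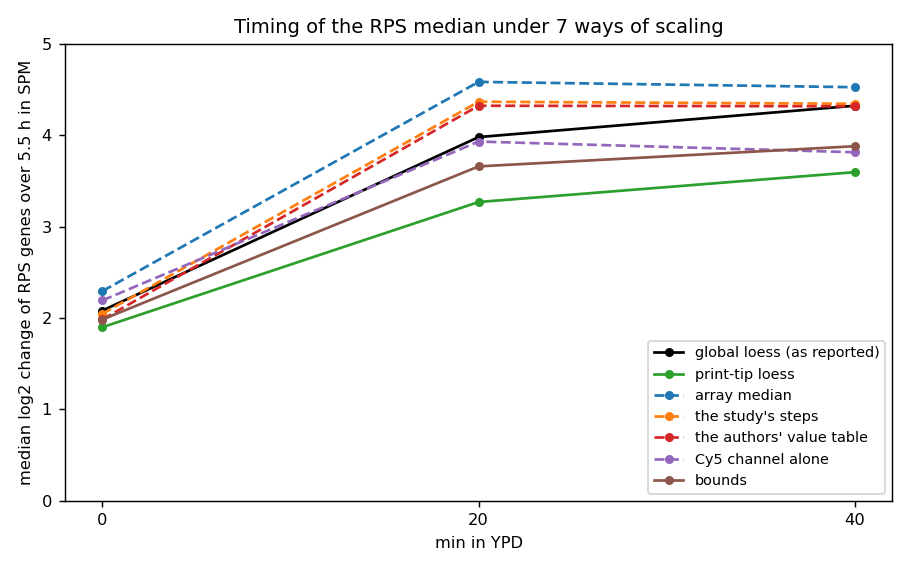
Median log2 change of the RPS genes relative to 5.5 h in SPM (y axis) at 0, 20 and 40 min in YPD (x axis) under 7 ways of scaling the arrays. The values at 0 min lie between 1.90 and 2.29, and after 20 min the solid lines still climb while the dashed lines are level or decline slightly.

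The structural and evolutionary groups of the family moved together. The 22 members of the head had a median 40 min change of 4.50 and the 34 members of the body and platform 3.99, with 21 and 32 of them higher. The 24 members that are also found in bacterial ribosomes had 4.50, all of them higher, and the 32 members without a bacterial counterpart had 4.07, with 29 higher and RPS21A lower. The 8 single-copy genes had 4.59, the 24 A copies 4.10 and the 24 B copies 4.41, with 8, 21 and 24 higher. The SD over members of the log2 ratio was 0.76, 0.79 and 0.76 at 0, 20 and 40 min in YPD, against 1.46 at 5.5 h in SPM. In the sample channel only 28 members were above background at 5.5 h, against 54, 53 and 53 in YPD. The extremes at 5.5 h were RPS21A (3.95) and RPS1B (−4.74, from spots that disagree). Whether the members truly differ more in SPM was not tested. Across the 56 members the ratios at 5.5 h and 40 min had Pearson's r = 0.23 and Spearman's rho = 0.42. These genes share arrays and reference and are not independent. Across the 53 called higher at 40 min r was 0.59. That call was made on the difference between the same ratios, and it left out RPS19A, RPS21A and RPS30A. The higher r therefore cannot be read apart from this selection.

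The small and large subunit families had nearly the same values. The median log2 ratios of the 72 RPL genes, which encode the large subunit, were −2.59, −0.10, 1.42 and 1.83 at 5.5 h, 0, 20 and 40 min, and 65 of 72 were higher at 40 min than at 5.5 h. The RPS median of the 40 min change exceeded the RPL median by 0.03, and over the settings run the difference lay between −0.15 and 0.10. Among the 100 ORFs with the largest increase there were 15 RPS and 26 RPL genes at 0 min, 31 and 37 at 20 min, and 33 and 43 at 40 min. For the mitochondrial small subunit, only the genes with the symbol MRPS or RSM and a number were taken, so genes with other names are left out. These 20 genes had a median 40 min change of −0.51, with 0 higher and 3 lower (13.9% and 19.8% of all ORFs). Only 9 of the 20 were above background on both sides of this comparison and 9 were on neither, so the change of many is not resolved.

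**Figure D5:**
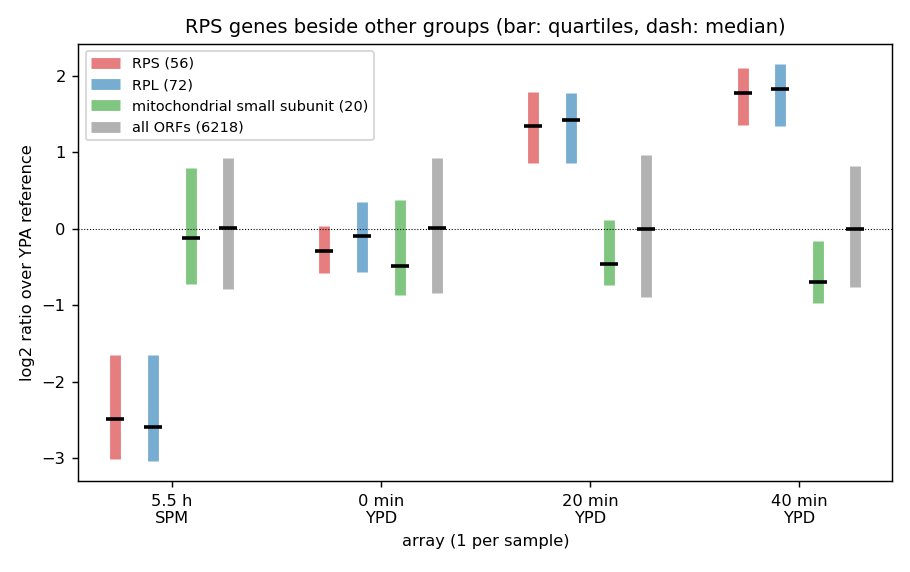
Log2 ratio over the YPA reference (y axis) on the 4 arrays (x axis) for the RPS genes, the RPL genes, the genes of the mitochondrial small subunit named MRPS or RSM, and all ORFs. Bars span the quartiles and dashes mark medians. RPS and RPL lie side by side on each array (−2.49 and −2.59 at 5.5 h, 1.77 and 1.83 at 40 min), while the mitochondrial genes stay near or below 0.

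ASC1, a small subunit protein outside the RPS naming that binds the head, had log2 ratios of −3.56, −2.28, 0.46 and 1.22, and was at least 20.4-fold higher at 40 min than at 5.5 h. Of the dedicated chaperones of small subunit proteins, 1 of 4 was higher at 40 min and 1 was lower (13.9% and 19.8% of all ORFs). TSR2, which carries Rps26, was higher, but it was above background in neither channel at 5.5 h and the bound was only at least 1.25-fold. TSR4, which carries Rps2, had a 40 min log2 change of −1.49. YAR1 (for Rps3) and FAP7 (for Rps14) did not pass. YAR1 was above background in neither channel at 40 min and FAP7 in neither on any array, so neither has a usable change. Among 6 regulators of ribosomal protein genes, 2 were higher at 40 min, IFH1 and SFP1, and 0 were lower (13.9% and 19.8% of all ORFs). IFH1, the coactivator at RPS promoters, had log2 ratios of −1.18, 3.23, 1.81 and 1.65, with its highest value at 0 min, and was at least 4.20-fold higher at 40 min than at 5.5 h. SFP1 had −0.38, 1.25, 1.27 and 1.64, a 4.07-fold increase at 40 min. RAP1, FHL1, CRF1 and HMO1 had 40 min changes of 0.10, −0.12, 0.24 and 0.10.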

How the data were processed

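Per the file headers, the deposited scanner files hold spot and local background intensity of Cy5 and Cy3 on a linear scale, quantified by the authors with QuantArray (version 3), not background-subtracted or normalized. The deposited value table contains the authors' log2 ratios after background subtraction, a floor at the buffer spots, median centring and spot filtering. The median of every column is 0. Sources differ on the dyes: the labelling text assigns Cy3 to the samples, but the label fields, the checklist of the study and the headers assign Cy5. The table correlated positively with Cy5 over Cy3 at r = 0.994 to 0.997 over 5506 to 5510 genes, and Cy5 was therefore read as the sample. Dyes were not swapped.

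In limma 3.58.1 (R 4.3.3), the normexp correction was applied with an offset of 50. Global loess, in which 236 buffer and 384 Arabidopsis spots had weight 0, was followed by centring on the median of the ORF spots. The steps were run on simulated data in which a small set of ORFs changed, evenly up and down, and only bright ORFs were scored. On the real arrays many more ORFs changed and many members were dim, so the simulation does not show how the steps perform here. Both spots were averaged. The call rule was a 2-fold difference in one direction in each spot and in their mean. Bounds used channel intensities after loess and Aquantile, with the dim side set to the higher of its own value and the lowest spot above background, and those against the reference are open to dye bias. Calls and ranks used measured values.

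Locus tags in RefSeq's R64 annotation named 5663 of the 6218 ORFs, 1 was named through the file's gene name and 554 were not matched. The sources used here do not give the array's build, so no coordinates are printed. Of 6159 probes of the value table, 5562 had 1 gene symbol, 0 several and 597 none, and 54 RPS genes had a value on all arrays. Single genes were described when they passed opposite to the family or did not pass at 40 min, when they had the 5 largest or 5 smallest changes above background, when they belonged to the 3 closest or 3 widest pairs, or by name (RPS21A, RPS21B, RPS31). Some genes that meet this rule are not reported here. Further genes appear as the edges of a range or list. The members, gene lists and alternatives were chosen with earlier results of these data known. Alternatives were the array median, print-tip loess, the study's steps, the value table, single spots, the Cy5 channel alone, bounds, 2 background filters and a 1.5-fold threshold. With 1 array per group, the number of arrays limits the precision.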

Additional observations from a re-analysis of the deposited data

How the results depend on the processing

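No paired analysis was possible because each group had 1 array. Across the scalings, single spots, filters and bounds, the median log2 value of the RPS genes ranged between −2.55 and −2.18 at 5.5 h against the reference, and between 1.34 and 1.93 at 40 min against the reference. Relative to 5.5 h the median change ranged between 1.90 and 2.29 at 0 min, between 3.21 and 4.58 at 20 min and between 3.60 and 4.53 at 40 min, and the step between 0 and 20 min between 1.36 and 2.26. The median step between 20 and 40 min changed sign to −0.14 with the array median, −0.11 with the study's steps, −0.075 in the authors' value table and −0.083 with the Cy5 channel alone. The cause was not tested.

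The counts of called members stayed within 1.5 times the reported ones, except where fewer members were tested or few were called. Among the 27 members that passed background on every array in Cy5 as well as Cy3, 22 were lower at 5.5 h than the reference, 22, 26 and 27 were higher at 0, 20 and 40 min than at 5.5 h, 21 were higher at 20 than at 0 min, and 23 were higher at 40 min than the reference. In the step between 20 and 40 min, in place of 0 members, 2 were higher with print-tip loess, 1 in the value table, 1 with the first spot only and 13 at 1.5-fold. In place of 5 pairs, 12 differed in their 40 min change with print-tip loess, and 0 of 6 pairs did among members above background throughout. The RPS minus RPL median of the 40 min change was −0.15 with print-tip loess, −0.10 with the second spot and −0.15 with the Cy5 channel alone, against 0.03 as reported. Of the named genes only RPS9A changed its call at 40 min, to −0.33 with print-tip loess and to 0.86, without a call, with the Cy5 channel alone. Signal over background at 5.5 h limits 26 of the 53 increases to bounds.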
